A study of Homo sapiens with 32 samples.

Results

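ABC transporters use ATP to carry substrates across membranes, and those at the cell surface that export chemotherapy drugs are a long-studied mechanism of drug resistance in acute myeloid leukaemia (AML). Expression of ABCB1 in particular is known from CD34-positive leukaemic blasts, and normal haematopoietic stem cells carry ABCB1 and ABCG2. The 6 drug efflux transporter genes described here are ABCB1 (P-glycoprotein), ABCC1, ABCC3, ABCC4 and ABCC5 (multidrug resistance-associated proteins MRP1, MRP3, MRP4 and MRP5) and ABCG2 (breast cancer resistance protein). They were taken by name, with every probe set that the array annotation assigns to them, which gave 18 probe sets of 54675 on the array, and 6 genes of 19775.

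The samples were 32 established human AML cell lines, each measured once on an Affymetrix expression array, in a series whose stated interest was the response of such lines to inhibitors of PIM kinases. No line is a control for another. RPMI 1640 without a cytokine was the medium of 21 lines, and F-36P had IL-3 (5 ng/ml) added to it. KG-1A is counted among the 21 from a growth protocol entry written KG1 with a question mark. OCI-M1, OCI-M2, SH-2 and SHI-1 grew in IMDM, while OCI-AML2, OCI-AML3 and OCI-AML5 had alpha-MEM supplemented with either SCF or GM-CSF. For the remaining 3, MV4-11, MOLM-16 and MOLM-13, the labels name no medium. KG-1A is a subline of KG-1, and PLB-985 a subline of HL-60, so tests used the mean of each pair, which left 30 units. Each line was measured on 1 array only, so no spread within a line was measured. Levels are log2(signal + 16). A level of 6.73, the median over all probe sets and arrays, was taken as the lower limit of a usable reading, and a fold against a line under that limit is given as "at least". The leukocyte gene PTPRC (CD45) and the kinase gene LYN lay above it in 30 of 30 units, and the myeloid transcription factor gene SPI1 in 27.

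Median signal lay between 68.2 and 115.4 on 30 arrays, and was 198.4 in NOMO-1 and 243.3 in GF-D8. In those 2 arrays the TrpnX control probe sets, for a bacterial gene that is not in the sample, also read higher, up to 8.26 in GF-D8. The highest TrpnX set read 4.52 to 6.06 on the other 30 arrays. Other control probe sets were not used for this. The 3′ to 5′ signal ratio of GAPDH, a sign of RNA quality, was 0.871 to 1.24 on 24 arrays and 2.42 to 7.08 on the other 8 (GF-D8, THP-1, NB-4, HL-60, GDM-1, NOMO-1, ML-2 and MOLM-13).

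The 6 genes differed in how many lines exceeded 6.73 on the probe set used for each. ABCC1 and ABCC5 exceeded it in 32 of 32 lines and ABCC4 in 31 of 32. ABCB1 exceeded it in 13 lines, ABCC3 in 10 and ABCG2 in 7. These counts depend on the probe set: by their dimmest sets, ABCC4 exceeded it in 5 lines and ABCC5 in 12. A level is compared here between lines within 1 probe set and not between genes, since probe sets differ in brightness. In a bulk culture, fewer expressing cells and less RNA per cell cannot be told apart. With readings under the limit set to it, ABCC4 spanned at least 6.68 on the log2 scale between the highest and the lowest line and ABCB1 at least 4.44. ABCC5 spanned 3.74 and ABCC1 3.52, with all lines measured, and ABCG2 and ABCC3 at least 1.59 and 1.53.

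**Figure D1:**
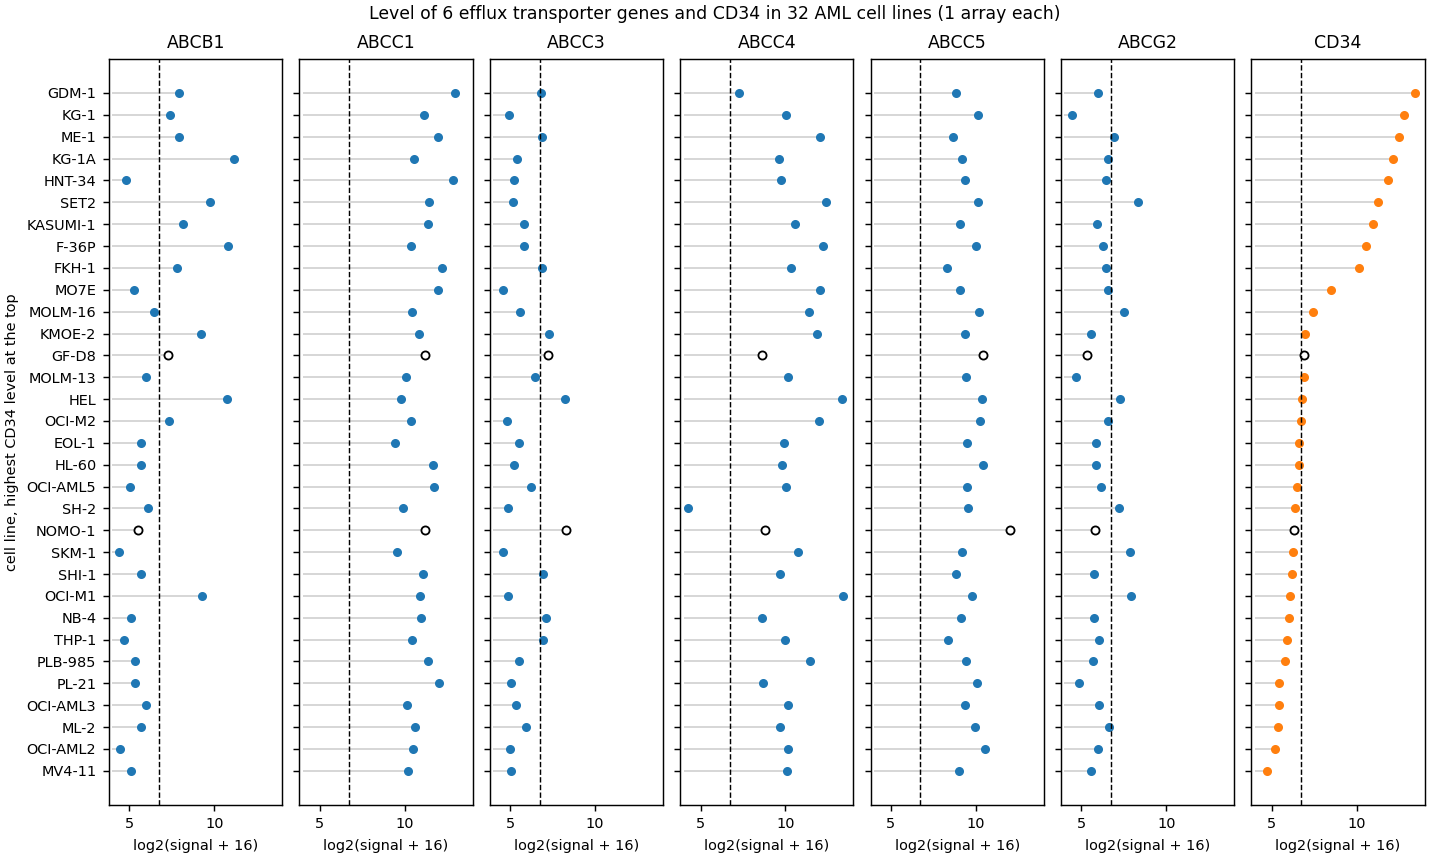
Level of the 6 transporter genes and of CD34, as log2(signal + 16), in each of the 32 lines, with the line of highest CD34 level at the top and the limit of 6.73 dashed; open circles are NOMO-1 and GF-D8, whose arrays had the highest medians. ABCC1 and ABCC5 lie right of the dashed line in all 32 lines, ABCC4 in all but SH-2, and ABCB1, ABCC3 and ABCG2 in 13, 10 and 7 lines.

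ABCB1 encodes the export pump for anthracyclines, vinca alkaloids and many other hydrophobic compounds. RefSeq lists 2 starts for the gene, both on the minus strand of chromosome 7 (build GRCh38.p14). The 250 bases before each are shown because ABCB1 varied from background to among the brighter readings between lines, and the 250 bases before the ABCC4 start because ABCC4 levels ran partly with those of ABCB1. Capitals mark 4 motifs searched on both strands: the CCAAT box, the GC box GGGCGG, the letters GATAA, which GATA factors read, and the TATA box TATAAA.
ABCB1, upstream start, chr7:87713296-87713545: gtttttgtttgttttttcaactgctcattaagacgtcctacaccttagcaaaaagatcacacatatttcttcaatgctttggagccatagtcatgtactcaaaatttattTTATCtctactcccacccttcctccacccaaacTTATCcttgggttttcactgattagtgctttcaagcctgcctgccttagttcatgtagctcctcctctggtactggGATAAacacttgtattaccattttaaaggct
ABCB1, downstream start, chr7:87600885-87601134: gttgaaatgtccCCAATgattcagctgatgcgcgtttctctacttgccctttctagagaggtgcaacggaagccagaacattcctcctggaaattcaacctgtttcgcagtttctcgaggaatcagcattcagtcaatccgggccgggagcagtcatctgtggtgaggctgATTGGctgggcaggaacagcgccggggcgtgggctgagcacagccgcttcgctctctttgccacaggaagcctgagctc
ABCC4, chr13:95301452-95301701: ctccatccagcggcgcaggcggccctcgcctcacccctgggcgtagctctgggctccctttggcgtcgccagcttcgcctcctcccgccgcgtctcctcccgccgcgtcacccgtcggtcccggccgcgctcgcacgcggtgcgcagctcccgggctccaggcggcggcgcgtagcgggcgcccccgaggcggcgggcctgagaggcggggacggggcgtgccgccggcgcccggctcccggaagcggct
The stretch before the upstream ABCB1 start held 3 matches to GATAA, at 140, 107 and 31 bases before the start, and was 39.2% G and C. The stretch before the downstream ABCB1 start held 2 matches to CCAAT, 1 on each strand, at 238 and 79 bases before the start, and was 55.6% G and C. The ABCC4 stretch held none of the 4 motifs and was 80.4% G and C. Of 35116 promoters of the same length, 20.4% held GATAA, 32% CCAAT, 42.6% GGGCGG and 10.7% TATAAA. No motif overlapped another in these stretches. RefSeq promoters matched 4 of the 6 genes. The array does not say which start a transcript used.

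Of the 3 ABCB1 probe sets, the one with the highest mean (7.03) is shared with ABCB4, the phosphatidylcholine transporter gene next to it. The brighter of the 2 unshared sets, with a mean of 6.78, was therefore used for ABCB1 unless stated, and the shared set is given beside it. By this set, KG-1A stood highest at 11.17. F-36P followed at 10.78, HEL at 10.72, SET2 at 9.75, OCI-M1 at 9.30 and KMOE-2 at 9.22. After a gap of 1.05, the largest in the order, came KASUMI-1 at 8.17, ME-1 and GDM-1 both at 7.95, FKH-1 at 7.77, KG-1 at 7.40, OCI-M2 at 7.32 and GF-D8 at 7.28. The other 19 lines lay between 6.42 (MOLM-16) and 4.36 (SKM-1), under the limit. KG-1A was thus at least 21.7-fold above SKM-1. GF-D8 is the line whose array had the highest TrpnX control reading, and its ABCB1 level lay below its highest TrpnX probe set.

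The 2 unshared ABCB1 sets ran together over the 32 lines (Pearson r = 0.87 and Spearman rho = 0.82), and F-36P, GF-D8, HEL and KG-1A led the dimmer one, at 8.91, 8.63, 8.42 and 8.33. The shared set followed the main unshared set less closely (r = 0.74, rho = 0.57). It read 17 lines above the limit, against 13 by the main unshared set. Of the lines that read brightest on it relative to the unshared set, 4 also had bright sets of ABCB4 alone. In OCI-AML3 the shared set read 9.23, the ABCB1 set 5.97 and the 2 ABCB4 sets 8.41 and 7.95. In OCI-AML2 the same 4 sets read 8.51, 4.45, 8.16 and 8.09, in OCI-AML5 7.78, 5.05, 8.02 and 7.03, and in THP-1 7.76, 4.66, 6.94 and 7.40. NOMO-1 was the exception, with 7.16 on the shared set, 5.52 on the ABCB1 set and 5.31 and 4.83 on the ABCB4 sets. Levels of ABCB1 and ABCB4 cannot be told apart on the shared set, and in OCI-AML2, OCI-AML3, OCI-AML5 and THP-1 neither unshared ABCB1 set exceeded the limit.

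**Figure D2:**
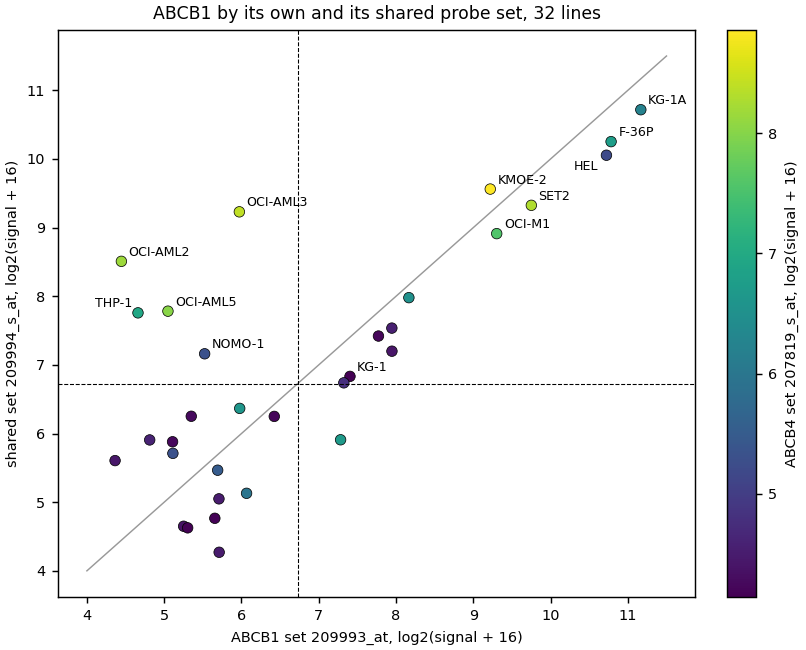
Each of 32 lines by the unshared ABCB1 probe set (horizontal) and the set shared with ABCB4 (vertical), both as log2(signal + 16), coloured by the brighter ABCB4 set; the grey line marks equal levels and dashed lines the limit of 6.73. OCI-AML2, OCI-AML3, OCI-AML5 and THP-1 lie far above the line of equal levels, with ABCB4 at 6.94 to 8.41.

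KG-1A and KG-1 differed in ABCB1 more than in any other of the 6 genes. On the main unshared set KG-1A read 11.17 and KG-1 7.40, a difference of 3.76 on the log2 scale, or 13.6-fold. The shared set gave 10.72 in KG-1A and 6.83 in KG-1, and the dimmer unshared set 8.33 in KG-1A and 6.05 in KG-1. With readings under the limit set to it, the first of these differences was the 100th by size among 15454 genes. The median absolute difference between these 2 arrays over all genes was 0.47 without that floor. The other transporters differed less: ABCC1 read 10.52 in KG-1A and 11.16 in KG-1, ABCC4 9.60 in KG-1A and 10.06 in KG-1, and ABCC5 9.20 in KG-1A and 10.10 in KG-1. ABCG2 read 6.54 in KG-1A and 4.45 in KG-1, and ABCC3 5.39 in KG-1A and 4.93 in KG-1, all under the limit. CD34 itself read 12.16 in KG-1A and 12.80 in KG-1. With 1 array per subline, no test of these differences was possible. In the other subline pair the largest transporter difference was in ABCC4, at 11.43 in PLB-985 and 9.81 in HL-60, or 3.06-fold. The array of HL-60 had a high GAPDH ratio and that of PLB-985 did not, and the part of RNA quality in this difference was not tested.

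Genes next to ABCB1 on chromosome 7 differed between KG-1A and KG-1 as well. With readings under the limit set to it, 4 of 10 listed neighbours read higher in KG-1A by 1 or more on the log2 scale and none lower by as much, where 6.59% of 15454 genes were higher by that amount. RUNDC3B, which overlaps ABCB1 in the annotation, read 12.98 in KG-1A and 10.12 in KG-1, the highest and the next highest of the 32 lines. CROT, a peroxisomal carnitine acyltransferase gene, read 9.0 in KG-1A and 6.29 in KG-1, and the non-coding gene TP53TG1 9.10 in KG-1A and 6.79 in KG-1. TMEM243 read 7.82 in KG-1A and 6.73 in KG-1. ABCB4 read 6.23 in KG-1A and 4.15 in KG-1, under the limit in both. In RefSeq order these genes run TMEM243, TP53TG1, CROT, ABCB4, ABCB1 and RUNDC3B, so that the 5 with a usable reading that was higher in KG-1A flank ABCB4, whose readings allow no comparison. The next gene on one side, DMTF1, read 10.88 in KG-1A and 11.08 in KG-1, and the next on the other, SLC25A40, 10.97 in KG-1A and 11.30 in KG-1. Beyond SLC25A40, DBF4, ADAM22 and SRI also read lower in KG-1A, by at most 0.64 on the log2 scale. Farther out, SEMA3A read 8.59 in KG-1A and 7.06 in KG-1, both above the limit. ELAPOR2 read 7.98 in KG-1A and 6.16 in KG-1, and STEAP1 8.78 in KG-1A and 6.44 in KG-1. Among the 32 lines, KG-1A ranked 6th and 12th from the top for TP53TG1 and CROT, and KG-1 31st and 30th. Over the 30 units these neighbours did not all follow ABCB1: r with ABCB1 was 0.44 for RUNDC3B, 0.24 for ABCB4, 0.16 for CROT, -0.12 for TP53TG1 and -0.30 for TMEM243.

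**Figure D3:**
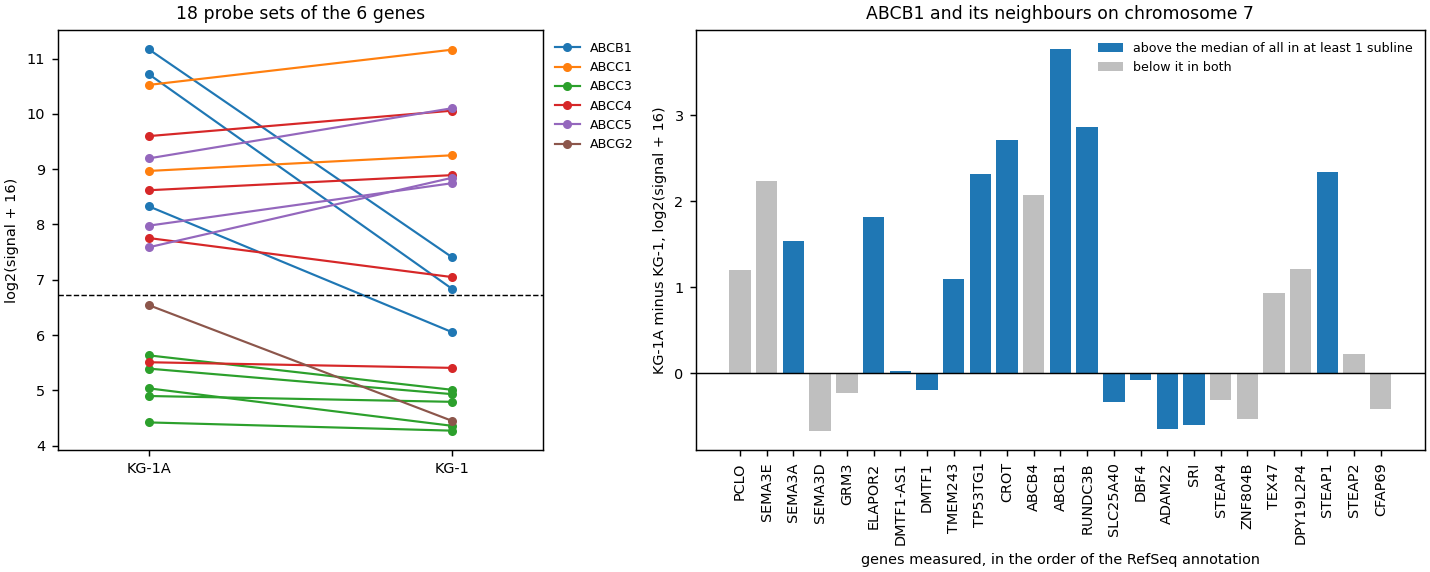
Left, level of the 18 probe sets of the 6 transporter genes in KG-1A and KG-1, joined by lines, with the limit of 6.73 dashed; right, the difference KG-1A minus KG-1 on the log2 scale for ABCB1 and the 12 measured genes on each side of it in annotation order, grey where both sublines lie under the limit. The 3 ABCB1 sets fall steeply towards KG-1, and TMEM243, TP53TG1, CROT, ABCB1 and RUNDC3B are higher in KG-1A, with ABCB4 between them in grey. Farther out, SEMA3A, ELAPOR2 and STEAP1 are also higher in KG-1A.

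ABCC1 encodes an exporter of glutathione conjugates and anthracyclines. Its levels ran from 9.44 in EOL-1 through a median of 10.92 to 12.95 in GDM-1, an 11.4-fold range. GDM-1 and HNT-34 (12.86) stood above FKH-1 (12.20), PL-21 (12.01), MO7E (11.95) and ME-1 (11.94), and SKM-1 (9.56) and HEL (9.80) were among the lowest. The second ABCC1 set followed the first closely (r = 0.91, rho = 0.89), and HNT-34 and GDM-1 led it at 11.16 and 10.65. Of the listed neighbours on 16p13.11, BMERB1 was also high in HNT-34 (9.18, the highest line) and in GDM-1 (8.73), where the median of the other 31 lines was 6.61. NDE1, MARF1 and CEP20 lay within 0.37 of their own medians in both lines, and RRN3 read 10.94 in HNT-34 and 10.24 in GDM-1 against a median of 10.23. ME-1 had the highest level of MYH11 (8.77, against a median of 6.04 in the other 31 lines), a smooth muscle myosin gene near ABCC1 that is a fusion partner in inv(16) leukaemia. BMERB1 read 5.09 in ME-1, 30th of the 32 lines, and over the 30 units its r with ABCC1 was 0.31.

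ABCC4 encodes an exporter of cyclic nucleotides and of nucleotide analogues such as thiopurine metabolites. It was highest in OCI-M1 (13.40) and HEL (13.32), then in SET2 (12.39), F-36P (12.21), MO7E (12.06), ME-1 (12.01), OCI-M2 (11.98) and KMOE-2 (11.85). The median line stood at 10.13. GDM-1 was low at 7.26, and SH-2 alone fell under the limit, at 4.27, so that OCI-M1 was at least 102-fold above SH-2. The 3 other ABCC4 sets read 5.30, 6.18 and 4.41 in SH-2, also under the limit, and they ran with the main set over the lines at r = 0.92, 0.79 and 0.66. They lay under the limit in 4, 11 and 27 of 32 lines. SH-2 was the lowest line only on the first of them, with PL-21 (5.46) and HNT-34 (4.23) lowest on the others. The SH-2 array had a median signal of 85.7 and a GAPDH ratio of 0.928, within the range of most arrays.

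ABCC5 encodes a related exporter of cyclic nucleotides and nucleotide analogues. Its main set ranged from 8.28 in FKH-1 through a median of 9.44 to 12.02 in NOMO-1, and the next line below NOMO-1 was OCI-AML2 at 10.55. NOMO-1 did not lead the second ABCC5 set, where it read 9.16 and SET2 led with 9.77. The sets ran together only in part (r = 0.53 between these 2). ABCC3, an exporter of glucuronide conjugates, read 8.26 in NOMO-1 and in HEL, then 7.28 in KMOE-2 and 7.24 in GF-D8, with 22 of 32 lines under the limit. The GF-D8 reading lay below the highest TrpnX control probe set of that array. The 5 sets of ABCC3 did not rank the lines alike (r between pairs from 0.019 to 0.65), and each of the other 4 exceeded the limit in at most 4 lines, so no order of lines is drawn for ABCC3.

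ABCG2 encodes the exporter of mitoxantrone, topotecan and urate that marks the side population of stem cells. It has a single probe set on the array. SET2 led at 8.32, followed by OCI-M1 (7.94), SKM-1 (7.87), MOLM-16 (7.54), HEL (7.26), SH-2 (7.21) and ME-1 (6.94). The other 25 lines lay under the limit, from 6.64 in ML-2 to 4.45 in KG-1. SET2 was at least 3.01-fold above KG-1.

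Few steps in these orders of lines were large. Between neighbours in the order of 32 lines there are 31 gaps. With readings under the limit set to it, 5 gaps for ABCC4, 3 for ABCB1, 1 each for ABCC1, ABCC3 and ABCC5 and none for ABCG2 exceeded 0.47, the median difference between the sublines KG-1A and KG-1 over all genes. That median was taken without the floor, and the 95th percentile of the same differences was 2.15. The largest gap, 1.47 for ABCC5, lay under that percentile. The order of neighbours is that of single readings, and no gap, smaller or larger than 0.47, is shown to be a difference between those lines.

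The transporters varied largely apart from one another. Over 30 units, Pearson's r between pairs of the 6 ranged from -0.27 (ABCC3 with ABCG2) to 0.46 (ABCB1 with ABCC4), as a description of levels that share arrays. ABCC4 with ABCG2 gave r = 0.36 and rho = 0.52, ABCB1 with ABCG2 r = 0.27 and rho = 0.19, and ABCB1 with ABCC1 r = 0.018. The pair ABCB1 and ABCC4 gave r = 0.47 without NOMO-1 and GF-D8. OCI-M1, HEL, SET2, F-36P, KMOE-2 and ME-1 were among the 8 highest lines for both.

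The relation to CD34, the sialomucin that marks haematopoietic progenitors, was tested over the 30 units. CD34 was highest in GDM-1 (13.44), KG-1 (12.80), ME-1 (12.49), KG-1A (12.16), HNT-34 (11.83), SET2 (11.27), KASUMI-1 (10.94), F-36P (10.55) and FKH-1 (10.14), then MO7E (8.48), and all other lines lay between 7.40 and 4.73. ABCB1 and ABCC1 had the largest positive slopes among the 6, and neither passed the adjusted threshold. The slope of ABCB1 was 0.38 ± 0.12 (SE) log2 units per log2 unit of CD34 (95% interval 0.14 to 0.62, limma, unadjusted p = 0.00247, adjusted p = 0.105). The slope of ABCC1 was 0.20 ± 0.054 (95% interval 0.10 to 0.31, limma, unadjusted p = 0.000604, adjusted p = 0.0513). The share of all genes past the threshold was 1.16% in either direction (179 of 15454), 0.802% with a positive and 0.356% with a negative slope, and 0 of the 6 transporters was among them. An unadjusted limma p under 0.05 was found for 2 of the 6 transporters and for 1783 of 15454 genes.

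For ABCB1, 7 of the 8 units with CD34 above 10 exceeded the limit, HNT-34 being the exception at 4.81. HEL, OCI-M1, KMOE-2, OCI-M2 and GF-D8 exceeded it with CD34 between 6.10 and 6.95. Pearson's r was 0.51 and rho 0.56, and r was also 0.51 without GDM-1 and ME-1, the units with the most extreme CD34 levels. The shared set and the other unshared set gave lower slopes, 0.19 ± 0.12 (adjusted p = 0.569) and 0.15 ± 0.082 (adjusted p = 0.533). Leaving out HEL or HNT-34 moved the ABCB1 slope past the threshold, to 0.40 (adjusted p = 0.0380) and 0.47 (adjusted p = 0.0416). With the erythroid and megakaryocyte list scores as covariates it was 0.26 (adjusted p = 0.466).

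For ABCC1, r was 0.58, rho 0.38, and r without GDM-1 and ME-1 0.44. Its adjusted p lay at the edge of the threshold: 6 of 14 alternative settings and 9 of the 30 fits that each left out 1 unit passed. The slope was 0.21 ± 0.051 by the second ABCC1 set (adjusted p = 0.0306) and 0.24 without KG-1 and KG-1A (adjusted p = 0.0294). It was 0.18 (adjusted p = 0.286) with the 8 high-ratio GAPDH arrays left out. With the erythroid and megakaryocyte scores as covariates the ABCC1 slope was 0.19 (limma, adjusted p = 0.287), and in RPMI 1640 alone 0.21 (adjusted p = 0.201). ABCC1 levels also ran with the median of the array at r = 0.55 over the 28 units other than NOMO-1 and GF-D8. The part of this in the slope was not tested. Median centring gave a slope of 0.20 (adjusted p = 0.0414) and quantile normalization 0.20 (adjusted p = 0.0669).

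None of the other 4 transporters passed on CD34, and their slopes were smaller. ABCC3 gave 0.017 (95% interval -0.14 to 0.17, adjusted p = 0.977), ABCC4 0.065 (-0.19 to 0.32, adjusted p = 0.930), ABCC5 -0.077 (-0.19 to 0.032, adjusted p = 0.654) and ABCG2 0.055 (-0.076 to 0.19, adjusted p = 0.85), all by limma. ABCG2 lay under the limit in KG-1, GDM-1, KG-1A, HNT-34, KASUMI-1, F-36P and FKH-1 and above it in ME-1 and SET2.

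**Figure D4:**
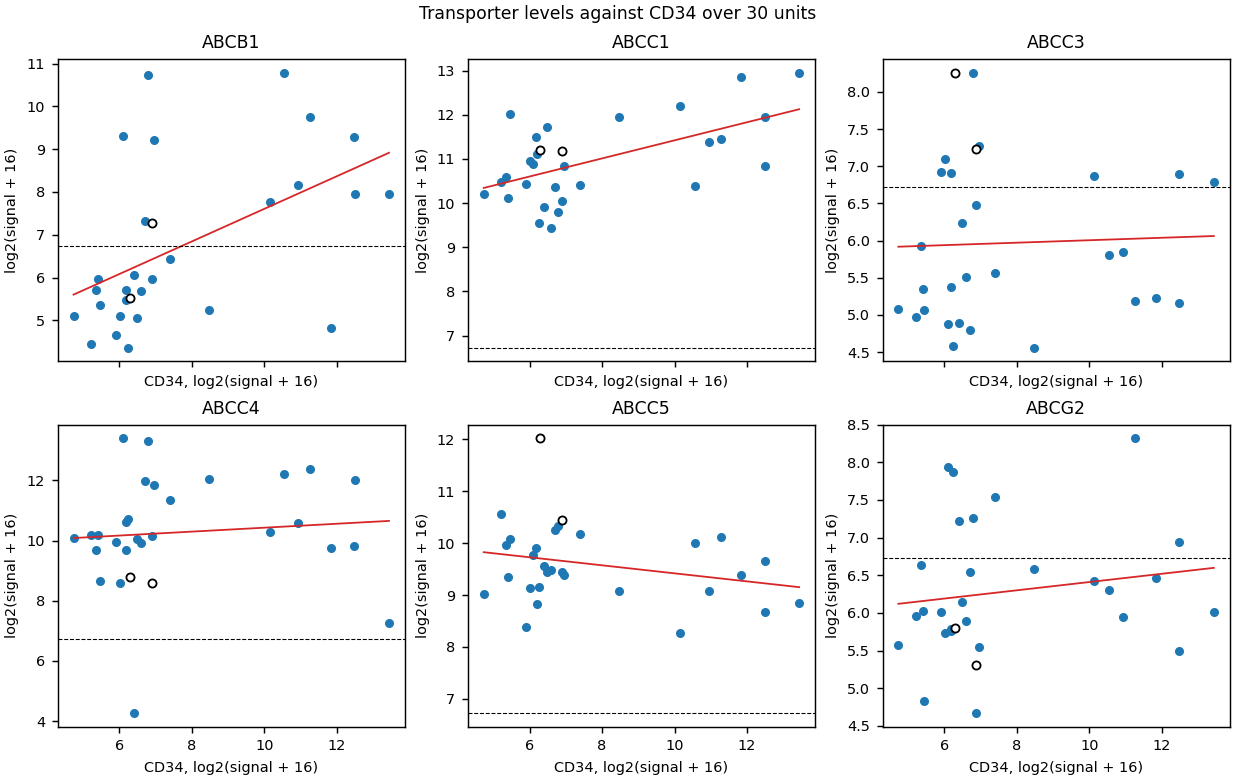
Level of each transporter against CD34 over the 30 units, both as log2(signal + 16), with the fitted limma slope in red, the limit of 6.73 dashed, and NOMO-1 and GF-D8 as open circles. ABCB1 and ABCC1 slope upward (0.38 and 0.20 per log2 unit of CD34), and the other 4 fitted slopes lie between -0.077 and 0.065.

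In the same limma fit on CD34, 19 of 20 tested stem and progenitor genes had a positive slope, and 11 of these passed the adjusted threshold. The largest slopes among the 11 were those of ERG (0.87 ± 0.13, adjusted p = 0.000882), HOPX (0.79 ± 0.15, adjusted p = 0.00519), ANGPT1 (0.74 ± 0.15, adjusted p = 0.00740), SPINK2 (0.69 ± 0.17, adjusted p = 0.0327), ADGRG1 (0.68 ± 0.14, adjusted p = 0.0111) and NPR3 (0.57 ± 0.13, adjusted p = 0.0202). Of 9 tested erythroid genes 8 had a positive slope, and only TAL1 passed (0.69 ± 0.16, adjusted p = 0.0210). All 8 megakaryocyte genes had a positive slope, and only VWF passed (0.43 ± 0.094, adjusted p = 0.0160). All 6 granule genes had a negative slope, and only PRTN3 passed, at -0.86 ± 0.22 per log2 unit (adjusted p = 0.0465). None of the tested monocyte (6), B cell (4), T and NK cell (5), epithelial and stromal (6) or general myeloid (4) markers passed. The wider drug-handling lists were at 0: none of 23 tested other ABC transporters, 14 drug uptake transporters, 23 drug-handling enzymes and targets, 16 regulators of transporter transcription, 10 neighbours of ABCB1 or 6 neighbours of ABCC1 passed in either direction. The median slopes of these 6 lists lay between -0.036 and -0.00097, where that of all genes was 0.0014 and that of the 6 transporters 0.060. The most variable members included the cholesterol exporter gene ABCA1 (slope -0.31, adjusted p = 0.296, highest in SH-2 at 12.33), ABCA5 (-0.28, adjusted p = 0.385, highest in NOMO-1 at 11.84), the aldehyde dehydrogenase gene ALDH1A1 (0.42, adjusted p = 0.323, highest in SET2 at 13.27), the steroid- and carbonyl-reducing enzyme gene AKR1C3 (0.32, adjusted p = 0.464, highest in SET2 at 13.29), and, among uptake carriers, SLC22A16 (-0.26, adjusted p = 0.652, highest in PL-21 at 11.87) and the equilibrative nucleoside transporter gene SLC29A2 (-0.018, adjusted p = 0.986, highest in NOMO-1 at 11.90).

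Levels of ABCB1, ABCC4 and ABCG2 ran with those of erythroid transcripts. A score was the mean over a list's tested genes of the level minus the gene's mean over the units. The erythroid score was highest in SET2 (3.90), OCI-M2 (3.70), F-36P (3.01), MOLM-16 (2.93), HEL (2.89) and OCI-M1 (2.64), and next in MO7E (0.94). Those 6 units held ABCC4 between 11.36 and 13.40. ABCB1 exceeded the limit in 5 of them, MOLM-16 reading 6.42, and ABCG2 in 4 of them, OCI-M2 reading 6.54 and F-36P 6.30. Outside those 6 units, ABCB1 exceeded it in KG-1 with KG-1A, KMOE-2, KASUMI-1, ME-1, GDM-1, FKH-1 and GF-D8, at erythroid scores from -0.98 (KASUMI-1) to 0.64 (GF-D8). ABCG2 exceeded it in SKM-1, SH-2 and ME-1, at erythroid scores of -1.33, -1.62 and -0.11. Over the 30 units r with the erythroid score was 0.70 for ABCB1 (rho 0.61), 0.63 for ABCC4 (rho 0.60) and 0.55 for ABCG2 (rho 0.43), and without SET2 and OCI-M2, the most extreme units, 0.71, 0.60 and 0.47. It was 0.30 for ABCC5, and it was -0.0045 for ABCC1 and -0.031 for ABCC3. Relations with the megakaryocyte score were r = 0.62 for ABCB1 and 0.51 for ABCC4, and with the monocyte score -0.62 for ABCB1 and -0.45 for ABCC4. With the granule score r was -0.62 for ABCB1, -0.58 for ABCC4 and -0.38 for ABCG2. ABCC1 ran instead with the stem and progenitor score (r = 0.65, rho 0.47), and that r was 0.48 without GDM-1 and HNT-34. These correlations were looked at after the levels were seen, describe lines that differ in many genes at once, and carry no test. The erythroid genes closest to ABCB1 were TAL1 (r = 0.69), RHAG (0.65), HBZ (0.65) and KLF1 (0.61).

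The PIM kinases were related to the transporters in the same way, since PIM1 phosphorylates ABCB1 and ABCG2 proteins and PIM inhibitors are the interest of the series. For PIM2, ABCC4 was the 1 transporter of 6 that passed: its level rose by 1.32 ± 0.30 (SE) log2 units per log2 unit of PIM2 (95% interval 0.72 to 1.93, limma, adjusted p = 0.0239, r = 0.62, rho = 0.55), where 1.48% of 15454 genes passed in either direction and 0.725% with a positive slope. OCI-M1 and HEL held the highest levels of both genes, with PIM2 at 12.06 and 11.09. The call was lost without OCI-M1 (1.41, adjusted p = 0.0839) or without HEL (1.25, adjusted p = 0.0625), and, with the erythroid and megakaryocyte scores as covariates, the slope was 0.82 (adjusted p = 0.408). ABCC4 levels ran with the log2 GAPDH ratio at r = -0.41, and the call was also lost with that ratio as a covariate (1.17, adjusted p = 0.0806) or without the arrays of high ratio (1.11, adjusted p = 0.120). PIM2 itself ran with the erythroid score at r = 0.63. ABCG2 had a slope of 0.52 ± 0.17 (adjusted p = 0.0998) and ABCB1 of 0.98 ± 0.36 (adjusted p = 0.140), and ABCC1, ABCC3 and ABCC5 had slopes between -0.13 and 0.041 (adjusted p from 0.719 to 0.899).

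For PIM1, none of the 6 passed, against 0.00647% of all genes (1 gene, with 1100 at an unadjusted p under 0.05). ABCB1 had a slope of 0.27 (95% interval -0.038 to 0.58, adjusted p = 0.748) and ABCG2 of 0.069 (-0.087 to 0.23, adjusted p = 0.942). For PIM3, none of the 6 passed, against 0.569% of all genes in either direction and 0.291% with a negative slope. The largest was ABCB1 at -1.63 ± 0.52 (95% interval -2.69 to -0.57, adjusted p = 0.0986), and KG-1A and KG-1 together had the lowest PIM3 level of the 30 units, 9.85. PIM3 levels ran with the log2 GAPDH ratio at r = 0.60, and those of ABCB1 at r = -0.20. The unadjusted p of the ABCB1 slope was 0.00361 by limma. With the GAPDH ratio as a covariate the slope of ABCB1 was -1.95 (unadjusted p = 0.00584, adjusted p = 0.998). Without the 8 arrays of high ratio it was -2.42 (unadjusted p = 0.00257, adjusted p = 0.40). With the erythroid and megakaryocyte scores as covariates it was -0.78 (unadjusted p = 0.105, adjusted p = 0.480). Among the listed genes, SRI, a calcium-binding protein gene close to ABCB1, fell by 0.97 ± 0.21 per log2 unit of PIM3 (adjusted p = 0.0363) and AKR1C3 fell by 2.51 ± 0.61 (adjusted p = 0.0468). Both calls were lost with the GAPDH ratio as a covariate, without the arrays of high ratio and in RPMI 1640 alone, where 0 genes in all passed.

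**Figure D5:**
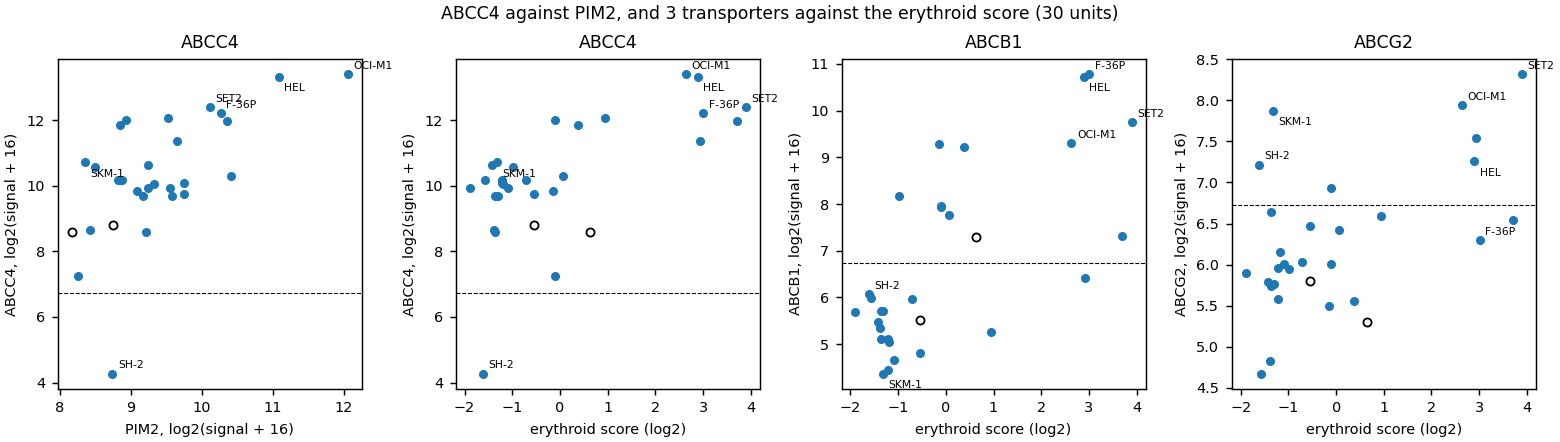
Level of ABCC4 against PIM2, and of ABCC4, ABCB1 and ABCG2 against the erythroid list score (the mean deviation of its genes from their means, in log2 units), over the 30 units; open circles are NOMO-1 and GF-D8 and the dashed line is the limit of 6.73. The units above 2 on the erythroid score all have ABCC4 above 11, and SH-2 lies apart at 4.27.

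The genes whose levels ran most like each transporter were taken as the 5 with the highest Pearson r over 30 units among 15454 genes. For ABCB1 they were AMHR2 (r = 0.77), the caveola protein gene CAVIN2 (0.75), ELAPOR2 (0.74), the chloride channel family gene CLIC2 (0.74) and CD274, which encodes the checkpoint ligand PD-L1 (0.74). ELAPOR2 lies on chromosome 7, 7 measured genes from ABCB1. CD34 ranked 333rd by r with ABCB1. For ABCC4 the genes were the sphingomyelin synthase gene SGMS1 (0.82), STXBP5 (0.78), the cytokine receptor subunit gene IL6ST (0.77), TMEM64 (0.76) and AIDA (0.76). For ABCG2 they were TANC1 (0.78), SGPP1 (0.75), the protein kinase A inhibitor gene PKIA (0.71), SERPINE2 (0.67) and CNRIP1 (0.67). For ABCC1 they were TPT1-AS1 (0.74), SEC31B (0.71), FBXW4P1 (0.71), the progenitor gene SPINK2 (0.71) and VWF (0.70), and CD34 ranked 70th. The leading gene for each of ABCB1, ABCC4 and ABCG2 still ranked 1st without NOMO-1 and GF-D8, and TPT1-AS1 ranked 4th for ABCC1. For ABCC3 the leading gene was DNAJC1 (0.76), with DSCR10, CLDN10-AS1, CENATAC and THY1 between 0.70 and 0.68, and NOMO-1 or GF-D8 held the highest level of 4 of these 5. For ABCC5 the genes were MPP7 (0.71), ZMYND10 (0.69), TMCC3 (0.66), MXRA8 (0.66) and PLEKHM2 (0.66), and NOMO-1 held the highest level of 4 of them; without NOMO-1 and GF-D8 their r with ABCC5 lay between 0.28 and 0.54.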

How the data were processed

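Total RNA of 32 acute myeloid leukaemia cell lines was measured on Affymetrix arrays, each line on a single array. The authors deposited linear intensities, 1 per probe set, and the submitters' processing notes name Affymetrix Expression Console; its version and the summarization method are not given in the sources used here. The mean without the top and bottom 2% of probe sets lay between 500.05 and 500.07 on every array.

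Intensities were used as log2(signal + 16). Probe sets were named from the platform annotation: 41091 had 1 symbol, 1801 several, 11721 were not listed and 62 were controls. Each of 19775 genes was read from its probe set of 1 symbol with the highest mean. The 6 transporters and all gene lists were chosen with earlier results of these data known.

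KG-1A with KG-1, and PLB-985 with HL-60, were averaged as related sublines, which left 30 units. With limma 3.58.1 in R 4.3.3 (lmFit, eBayes with a mean-variance trend), each gene's level was fitted on the CD34 level and on each PIM level, leaving out that gene. A gene was tested if it exceeded a log2 level of 6.73, the median over all probe sets and arrays, in at least 3 units. P-values were two-sided and adjusted by Benjamini and Hochberg's method at 0.05. The fit was tested on simulated data. Since no line has a second array, p-values rest on the variation among lines; precision is limited by how many arrays there are. CD34 levels were treated as continuous because the largest gap between units in their order, 1.66, was 19.1% of the range, under the 20% set as the limit. Alternatives covered the pseudocount, the filter, scaling, covariates, media, probe sets and single units left out. The named genes were the 6 transporters, CD34 and PIM1 to PIM3, the 5 tested genes with the highest Pearson r to each transporter, and, in each list, the genes past the CD34 threshold (at most 6) and the 2 with the largest SD. The run of genes around ABCB1 and around ABCC4 in RefSeq order was looked at after the levels were seen. For spans, gaps between lines and counts of differences between KG-1A and KG-1, levels under 6.73 were set to it, a rule chosen after the levels were seen. Plots were made with matplotlib 3.10.9.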

Additional observations from a re-analysis of the deposited data

How the results depend on the processing

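Of the transporter results, the direction of the CD34 slopes of ABCB1, ABCC1 and ABCG2 and of the PIM2 slopes of ABCC4, ABCB1 and ABCG2 held under every alternative run; calls and several small slopes did not, and the cause was not tested unless the alternative itself uses fewer samples. The CD34 slope of ABCC1 passed with pseudocount 64 (0.24), median centring (0.20), without NOMO-1 and GF-D8 (0.21), with the GAPDH ratio as covariate (0.21), without KG-1 and KG-1A (0.24) and by the second ABCC1 probe set (0.21). Leaving out each unit in turn gave 0.17 to 0.24 for ABCC1 (it passed without F-36P, HL-60 with PLB-985, KG-1 with KG-1A, KMOE-2, OCI-AML5, OCI-M1, PL-21, NOMO-1 or GF-D8), 0.33 to 0.47 for ABCB1, -0.011 to 0.043 for ABCC3, 0.022 to 0.19 for ABCC4, -0.094 to -0.059 for ABCC5 and 0.017 to 0.086 for ABCG2. The uncalled CD34 slope of ABCC3 turned to -0.0029 with pseudocount 64, -0.074 with lineage covariates (the erythroid and megakaryocyte scores) and -0.060 in RPMI 1640 alone; that of ABCC4 to -0.091 with lineage covariates; that of ABCC5 to 0.010 by the second ABCC5 probe set. Genes called on CD34 numbered 179, and 299 with 32 arrays, 31 without arrays of high GAPDH ratio, 17 with lineage covariates, 51 in RPMI 1640 alone, 14 with 2 clusters of CD34 and 90 to 230 leaving out 1 unit (90 without GDM-1, 112 without ME-1 or HNT-34).

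The PIM2 call of ABCC4 was also lost without arrays of high GAPDH ratio (1.11, adjusted p = 0.120), with the GAPDH covariate (1.17, adjusted p = 0.0806), in RPMI 1640 alone (1.17, adjusted p = 0.524) and by its dimmest probe set (0.61, adjusted p = 0.0974); over all alternatives other than single units left out, its adjusted p ranged from 0.00176 to 0.524. The PIM2 slope of ABCG2 passed with quantile normalization (0.60) and median centring (0.63) and without SKM-1 (0.63), that of ABCB1 with median centring (0.93), which moved the median PIM2 slope of all genes from -0.036 to 0.15, and the PIM3 slope of ABCB1 with quantile normalization (-1.70) and 32 arrays (-1.70). Genes called on PIM2 numbered 229, and 16 with the GAPDH covariate, 0 with lineage covariates and in RPMI 1640 alone, 4091 with median centring, 1695 with quantile normalization, 123 without arrays of high GAPDH ratio and 0 (without OCI-M1) to 404 (without KMOE-2) leaving out 1 unit, with 80 to 125 without OCI-M2, F-36P, HEL, SET2 or PL-21. Genes called on PIM3 numbered 88, and 0 with the GAPDH covariate, without those arrays and in RPMI 1640 alone, 540 with 32 arrays, 3 with lineage covariates, 46 with median centring, 22 with no filter, 1062 with quantile normalization, 269 without KG-1 and KG-1A, 31 without NOMO-1 and GF-D8 and 3 (without NB-4) to 418 (without NOMO-1) leaving out 1 unit, which moved the count by over 1.5 times also for F-36P, GDM-1, HL-60 with PLB-985, ML-2, MOLM-16, THP-1, MO7E, KG-1 with KG-1A, OCI-AML5, OCI-M1, ME-1, GF-D8, OCI-M2, SH-2, HEL and SET2. Genes called on PIM1 numbered 1, and 0 to 3 under the alternatives (2 with 32 arrays, 3 with lineage covariates) and 1 to 3 leaving out 1 unit.

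Other slopes that changed sign were uncalled. With lineage covariates these were, on PIM1, ABCC4 (-0.017), ABCC5 (-0.031) and ABCG2 (-0.025); on PIM2, ABCC5 (-0.22); on PIM3, ABCC4 (0.12) and ABCG2 (0.0032). On PIM2, ABCC3 turned to 0.045 with the GAPDH covariate, 0.17 in RPMI 1640 alone, 0.025 by another ABCC3 probe set, 0.032 without NOMO-1 and GF-D8 and 0.16 without arrays of high GAPDH ratio; ABCC5 to -0.051 in RPMI 1640 alone and -0.064 with quantile normalization; ABCC1 to 0.026 with median centring and 0.016 by its second probe set. On PIM3, ABCC3 turned to -0.076 with the GAPDH covariate and -0.20 by that other probe set; ABCC4 to 0.033 with median centring and 0.034 without arrays of high GAPDH ratio; ABCG2 to 0.038 with median centring. Leaving out 1 unit gave PIM1 slopes of -0.0045 to 0.043 for ABCC5, and PIM2 slopes of -0.35 to 0.037 for ABCC3 and -0.023 to 0.11 for ABCC5. Among descriptive values, r of ABCC3 with ABCC5 was 0.081, and -0.33 without NOMO-1 and GF-D8. No paired analysis was possible because each line was measured once and there is 1 group. Signal over background limits ABCB1, ABCC3, ABCG2 and also CD34, most of whose readings lie under 6.73.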

Other observations

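SH-2 was the line in which ABCC4 fell under the limit. Against the median of the other 31 lines, 10.17, its ABCC4 level was lower by at least 3.44 on the log2 scale. Of the 12 measured genes around ABCC4 in RefSeq order on chromosome 13, those above the limit in 32 of 32 lines were GPR180 and TGDS on one side, at 9.01 and 10.67 in SH-2 against medians of 8.84 and 10.80 in the other lines, and DNAJC3 on the other, at 11.95 in SH-2 against a median of 11.06. UGGT2, beyond DNAJC3, lay under the limit in SH-2, at 5.34 against a median of 8.37 in the other lines. SH-2 was not alone in this: UGGT2 exceeded the limit in 24 of 32 lines. SH-2 ranked 3rd from the lowest, and the lowest line read 4.56. In all, 30 genes lay under the limit in SH-2 and in no other line, and the corresponding number was 217 for GF-D8, 81 for NOMO-1 and between 3 and 43 for every other line.

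By medium, the 4 lines grown in IMDM (OCI-M1, OCI-M2, SH-2 and SHI-1) held ABCG2 between 5.76 and 7.94, and the 3 grown in alpha-MEM between 5.96 and 6.15. ABCB1 lay under the limit in the 3 alpha-MEM lines (4.45 to 5.97) and in the 3 lines with no medium given (5.11 to 6.42). Medium and line cannot be told apart.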
